A study of Homo sapiens with 12 samples.

Results

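The genes that open replication origins and drive the replication fork were followed on 12 arrays of H929, a human myeloma cell line. The set held 49 named genes, chosen by their role, with earlier results of these data known. The roles were licensing of origins (9), the helicase and its activation (15), polymerases and primase (10), the clamp, its loader and lagging-strand processing (11) and fork protection (4). All 49 had a probe set of their own, a group of probes for 1 transcript, among the 19775 genes that had one. Each gene was taken by its brightest probe set over the 12 arrays, and the 49 genes had 90 probe sets in all.

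The cells were untreated, or exposed for 24 hours to 250 nM CHR-3996, to 1 µM tosedostat (labelled CHR-2797), or to both at these doses, with 3 arrays in each group. CHR-3996 inhibits histone deacetylases, the enzymes that remove acetyl groups from histones, and tosedostat inhibits aminopeptidases, which release amino acids from the ends of peptides. The untreated cells carry no note of a vehicle or of time in culture, and 1 cell line in culture is the whole model. The study set out to find which genes the inhibitors change, alone and together.

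Origins are licensed in G1 phase, when the origin recognition complex, CDC6 and CDT1 load rings of MCM2-7 on to DNA, and geminin holds CDT1 in check after that. Replication starts in S phase, when the kinase CDC7 with DBF4, together with MCM10, CDC45 and the GINS complex, turns the ring into a working helicase. Polymerase alpha with primase lays primers, polymerases epsilon and delta extend them on the PCNA clamp loaded by replication factor C, and FEN1 and LIG1 join the lagging-strand pieces. Many of these genes are transcribed in waves by E2F factors as cells enter S phase, so their transcripts mark proliferating cells.

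Under CHR-3996, 43 of the 49 genes fell and 3 rose, at an adjusted p under 0.05 from limma. Of the 36395 probe sets tested, 15.7% were called lower and 29.4% higher in the same comparison. Tosedostat alone lowered 1 of the 49, against 0.451% of all probe sets called lower. Under the combination 39 fell and 5 rose, against 14.1% and 32% of all probe sets.

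The values were deposited on the log2 scale, and the correlation between arrays of 1 group lay between 0.978 and 0.983. Array medians were 5.0 to 5.06 in untreated and tosedostat-treated cells and 5.24 to 5.30 where CHR-3996 was present. The 3′ signal of β-actin exceeded the 5′ signal by 1.97 to 2.32 log2 units without CHR-3996 and by 1.08 to 1.76 with it. All 8 plasma cell markers looked at passed the filter on low values, and their summed linear signal was 38832 to 41176 in untreated cells, 18148 to 28306 under CHR-3996, 39722 to 43509 under tosedostat and 24144 to 25057 under the combination. Of these 8 markers, 4 were called lower and 0 higher under CHR-3996, against 15.7% and 29.4% of all probe sets. Under the combination 3 were lower and 1 higher, against 14.1% and 32%. Markers of other cell types were at low levels, and some lists moved with CHR-3996. The B cell list summed to 67.2 to 86.4 in untreated cells and 53.9 to 81.4 under tosedostat, and to 83.9 to 252 and 98.1 to 256 under CHR-3996 and the combination. In the same order of groups the T cell list summed to 119 to 126, 119 to 125, 120 to 152 and 136 to 173, the monocyte list to 85.4 to 107, 92 to 94.5, 114 to 128 and 109 to 141, and the stroma list to 232 to 297, 223 to 284, 202 to 257 and 205 to 247. The erythroid list summed to 64.3 to 138 in untreated cells and 76.3 to 130 under tosedostat, and to 208 to 372 and 207 to 434 under CHR-3996 and the combination. Of the tested markers of these lists, LYZ (monocytes), HBB (erythroid cells) and CD2 (T cells) were called higher under CHR-3996, at log2 fold changes of 2.03, 1.67 and 0.60. CD3D, a defining T cell gene, did not pass the filter and was listed at 0 on CHR-3996 array 3. The part of these differences in the results was not tested. In cells taken in bulk, fewer cells in S phase and less RNA per cell cannot be told apart. The samples are labelled as biological replicates with no word on separate cultures, so p-values measure the spread between these samples, and the number of arrays limits the precision.

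Promoters of the set are shown first because E2F factors are known to drive many of these genes. The RefSeq promoter table of GRCh38.p14 (300 bases, 250 before the start of the gene and 50 after) held 43 of the 49, without MCM4, MCM5, GINS4, POLD3, RPA2 and RPA3. Each was searched on both strands for the E2F letters TTTCCCGC, TTTCGCGC, TTTGCCGC and TTTGGCGC, for the letters TTTGAA and TTCGAA of the cell cycle homology region, an element of mitotic promoters, and for CCAAT, the box read by NF-Y. The E2F letters were in 19 of the 43 promoters (44.2%), against 703 of 15843 protein-coding promoters (4.44%). The homology region letters were in 2 of the 43 (4.65%), against 13.5% of all, and CCAAT in 24 (55.8%), against 36.4%.

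The helicase genes held the E2F letters most often, in 8 of 12 promoters, with 3 of 9 in licensing, 4 of 9 in polymerases, 3 of 9 in the clamp group and 1 of 4 in fork protection. MCM6 had 4 matches, and MCM2, MCM3 and MCM7 had 2 each. The matches overlapped one another on opposite strands in MCM2 and MCM6. Of the 38 genes called lower under CHR-3996 that were in the table, 18 held the letters (47.4%), and so did ORC3 among the 5 others. A match is a run of letters, not a measured binding site.

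The promoters printed here are, in each role group, the one with the deepest fall under CHR-3996 among those with the E2F letters. Those of the risen genes ORC4 and RFC1, which have none, follow. The fallen genes were chosen by the letters, so the print cannot show whether falls go with the letters. The printed promoters lie at chr17:40287629-40287928 (plus strand), chr16:85688905-85689204, chr14:49688165-49688464, chr20:5126573-5126872, chr1:35769929-35770228, chr2:148021502-148021801 and chr4:39366313-39366612 (minus strand) of GRCh38.p14. Each is written 5′ to 3′ along its gene, and capitals mark the E2F letters on either strand.
CDC6: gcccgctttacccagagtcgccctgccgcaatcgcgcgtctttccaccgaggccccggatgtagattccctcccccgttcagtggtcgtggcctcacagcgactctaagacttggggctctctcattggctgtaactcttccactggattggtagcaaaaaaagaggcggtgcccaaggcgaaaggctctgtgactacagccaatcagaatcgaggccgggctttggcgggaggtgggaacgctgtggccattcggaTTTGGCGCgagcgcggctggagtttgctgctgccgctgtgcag
GINS2: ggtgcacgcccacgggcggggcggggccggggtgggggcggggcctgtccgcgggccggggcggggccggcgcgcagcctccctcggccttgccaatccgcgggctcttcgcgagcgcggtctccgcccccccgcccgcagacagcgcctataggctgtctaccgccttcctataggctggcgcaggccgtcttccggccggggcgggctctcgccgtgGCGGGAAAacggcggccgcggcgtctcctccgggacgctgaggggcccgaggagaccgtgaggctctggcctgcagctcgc
POLE2: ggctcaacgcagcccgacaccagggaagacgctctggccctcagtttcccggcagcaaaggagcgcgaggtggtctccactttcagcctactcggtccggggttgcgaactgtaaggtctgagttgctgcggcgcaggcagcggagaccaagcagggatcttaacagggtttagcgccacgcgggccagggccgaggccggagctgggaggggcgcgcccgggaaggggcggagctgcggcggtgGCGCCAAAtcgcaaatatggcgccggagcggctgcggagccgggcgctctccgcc
PCNA: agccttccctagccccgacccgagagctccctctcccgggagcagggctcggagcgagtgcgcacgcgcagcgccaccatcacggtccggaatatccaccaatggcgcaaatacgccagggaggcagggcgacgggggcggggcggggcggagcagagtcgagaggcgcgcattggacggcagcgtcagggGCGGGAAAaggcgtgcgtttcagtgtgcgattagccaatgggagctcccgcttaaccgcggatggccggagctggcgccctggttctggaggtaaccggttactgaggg
CLSPN: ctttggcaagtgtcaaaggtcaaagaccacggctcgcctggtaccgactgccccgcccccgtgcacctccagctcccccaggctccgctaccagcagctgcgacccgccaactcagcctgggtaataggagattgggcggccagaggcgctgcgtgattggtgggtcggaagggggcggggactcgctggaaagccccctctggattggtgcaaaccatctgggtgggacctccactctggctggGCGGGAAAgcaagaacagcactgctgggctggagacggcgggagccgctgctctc
ORC4: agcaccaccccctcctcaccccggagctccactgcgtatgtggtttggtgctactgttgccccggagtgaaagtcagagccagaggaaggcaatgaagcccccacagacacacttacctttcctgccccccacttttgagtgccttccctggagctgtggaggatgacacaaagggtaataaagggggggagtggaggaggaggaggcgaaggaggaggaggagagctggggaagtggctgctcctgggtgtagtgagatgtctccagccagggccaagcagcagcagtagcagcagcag
RFC1: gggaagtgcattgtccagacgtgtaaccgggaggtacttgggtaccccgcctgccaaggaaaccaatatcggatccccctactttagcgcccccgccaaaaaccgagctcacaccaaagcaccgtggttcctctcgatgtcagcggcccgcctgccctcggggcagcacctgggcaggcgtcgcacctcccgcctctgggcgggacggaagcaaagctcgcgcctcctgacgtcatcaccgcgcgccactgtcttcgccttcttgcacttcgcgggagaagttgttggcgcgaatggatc
In CDC6 the letters lie 8 to 15 bases after the start, in GINS2 31 to 24 bases before it and in PCNA 59 to 52 bases before it, while in POLE2 and CLSPN they span the start. Apart from CDC6, where they read along the gene, they read on the opposite strand.

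**Figure D1:**
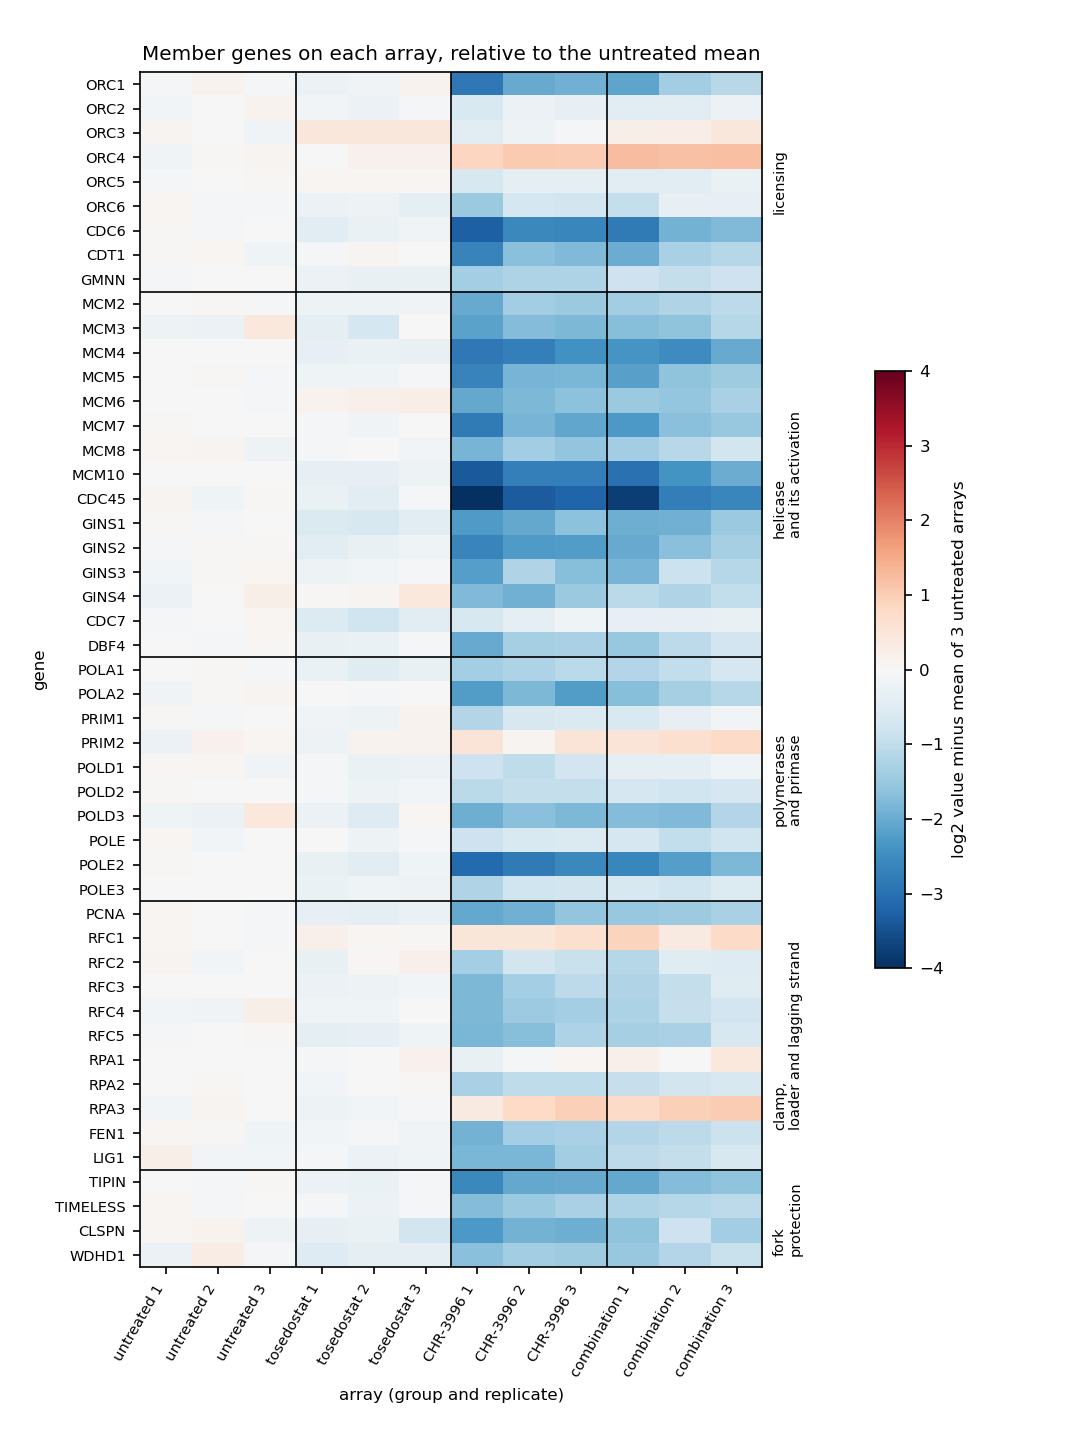
Log2 expression value of the 49 genes (rows, in role groups) on each of the 12 arrays (columns), minus the mean of the 3 untreated arrays. Blue is lower and red higher, and the scale runs from -4 to 4. The CHR-3996 and combination columns are blue for most genes, with ORC4, RFC1 and RPA3 red, and the tosedostat columns stay near white.

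In the licensing group, 7 of 9 genes fell and 1 rose under CHR-3996, against 15.7% and 29.4% of all probe sets. The median log2 fold change was -0.96 over the group against 0.11 over all probe sets tested. CDC6, the ATPase that loads the MCM ring, had log2 values of 10.33, 10.23 and 10.27 in untreated cells and 7.0, 7.69 and 7.67 under CHR-3996. Under tosedostat it read 9.87, 10.01 and 10.15, and under the combination 7.46, 8.39 and 8.51. The arrays with CHR-3996 were all below those without it. With CHR-3996 alone, CDC6 fell by 2.82 on the log2 scale (SE is the standard error of a difference, here 0.26, limma adjusted p = 7.6e-06), to 14.2% of the untreated level. Under the combination it fell by 2.16 (SE 0.26, adjusted p = 5.1e-05). CDT1, its partner in loading, fell by 2.03 and 1.46, and geminin (GMNN), the inhibitor of CDT1, fell by 1.28 and 0.86. The inhibitor and its target were both lower in either treatment.

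The 6 subunits of the origin recognition complex did not move together. ORC1, the subunit whose level cycles with the cell cycle, read 9.18, 9.40 and 9.16 in untreated cells and 6.40, 7.23 and 7.32 under CHR-3996. With both compounds it read 7.14, 7.87 and 8.15, and with tosedostat 9.0, 9.11 and 9.38. Its arrays with CHR-3996 lay clear of the others, and it fell by 2.26 under CHR-3996 (SE 0.28, limma adjusted p = 6e-05) and fell by 1.52 under the combination (adjusted p = 0.00099). ORC4, a core ATPase subunit, went the other way. Its values were 9.36, 9.54 and 9.62 in untreated cells, 10.35, 10.54 and 10.51 under CHR-3996, 9.47, 9.66 and 9.66 under tosedostat and 10.72, 10.66 and 10.69 under the combination. No array without CHR-3996 reached those with it. The log2 fold change of ORC4 was 0.96 under CHR-3996 (SE 0.11, limma adjusted p = 3.4e-05) and 1.19 under the combination (adjusted p = 7.2e-06), and it stayed called higher under both other scalings of the arrays, at 0.86 and 0.74 under CHR-3996. Its dimmer probe set gave 1.30 (adjusted p = 0.00035).

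Under CHR-3996 the other called subunits fell less, ORC2 by 0.39, ORC5 by 0.45 and ORC6 by 0.96. For ORC2 the other probe set, the dimmer one, was called higher at 0.36 (limma adjusted p = 0.039), so the direction of ORC2 depends on the probe set, and the mean of both gave -0.02. The call of ORC2 was also lost without untreated array 2 or 3 or CHR-3996 array 1 (adjusted p of 0.056 to 0.09). Under the combination the calls of ORC2 and ORC5 were lost with the mean of their probe sets, at -0.12 and -0.34. The adjusted p from limma was 0.28 and 0.13. Both calls were also lost without untreated array 2 or 3 or combination array 1 or 2 (adjusted p of 0.056 to 0.1). ORC3, a core subunit, had the highest fold change of the 49 under tosedostat. It read 10.40, 10.31 and 10.16 in untreated cells, 9.87, 10.09 and 10.22 under CHR-3996, 10.75, 10.73 and 10.73 under tosedostat and 10.53, 10.55 and 10.75 under the combination. Its tosedostat and combination arrays were above the untreated ones, while its CHR-3996 arrays overlapped them. The log2 fold changes were -0.23 under CHR-3996 (adjusted p = 0.16), 0.45 under tosedostat (adjusted p = 0.074) and 0.32 under the combination (adjusted p = 0.049), all from limma. The call under the combination was lost in 10 of the 12 fits that left out 1 array, with quantile normalization, at 0.17, and with equal array medians, at 0.07, and those scalings called ORC3 lower under CHR-3996, at -0.33 and -0.45.

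**Figure D2:**
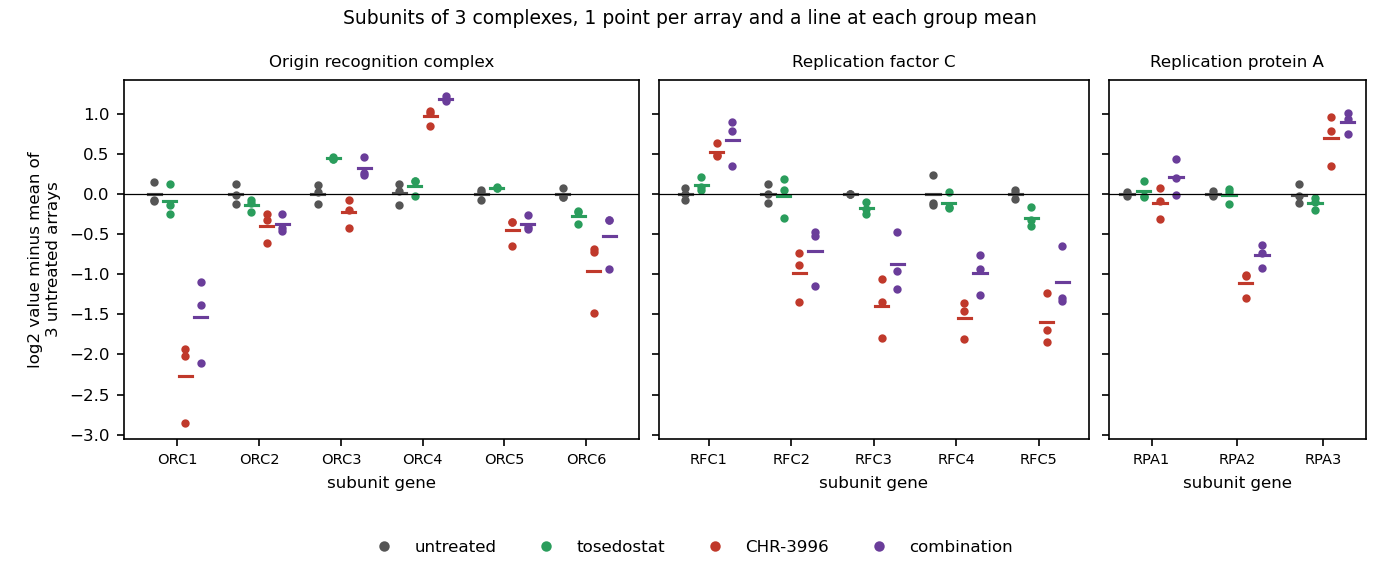
Log2 value minus the mean of the 3 untreated arrays (vertical axis) for the subunits of the origin recognition complex, replication factor C and replication protein A (horizontal axis), with 1 point per array and a line at each group mean. ORC4, RFC1 and RPA3 lie above 0 under CHR-3996 and the combination, while ORC1, RFC2 to RFC5 and RPA2 lie below 0.

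All 15 genes of the helicase and its activation fell under CHR-3996, 14 of them at least 2-fold, against 5.58% of all probe sets called lower at that size. The group had a median log2 fold change of -1.89. CDC45, which joins MCM2-7 and GINS in the working helicase, was the deepest of the 49. It read 10.51, 10.22 and 10.44 in untreated cells, 10.12, 9.93 and 10.32 under tosedostat, 6.42, 7.07 and 7.18 under CHR-3996 and 6.64, 7.62 and 7.78 under the combination. The arrays fall into a high set without CHR-3996 and a low set with it, more than 2 log2 units apart. CDC45 fell by 3.50 under CHR-3996 (SE 0.29, limma adjusted p = 3.1e-06), to 8.84% of the untreated level, and fell by 3.04 under the combination (adjusted p = 7.7e-06). MCM10, which helps to start the helicase, fell by 2.95 and 2.45.

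The 6 subunits of the MCM2-7 ring fell together. Their log2 fold changes ranged from -2.68 to -1.64 under CHR-3996, or 15.6% to 32.1% of the untreated level, and from -2.31 to -1.22 under the combination. MCM4 had the deepest fall of them, and read 11.86, 11.85 and 11.85 in untreated cells and 8.99, 9.10 and 9.44 under CHR-3996. Its values were 11.53, 11.57 and 11.55 under tosedostat and 9.48, 9.34 and 9.82 under the combination. The spread between its untreated arrays was very small beside the drop of 2.68 (SE 0.15, limma adjusted p = 2.8e-07). The log2 fold changes of GINS1 to GINS4 were -2.39 to -1.70 under CHR-3996 and -1.78 to -1.08 under the combination, all called lower. A dimmer probe set of GINS2 gave -0.61 under CHR-3996 (limma adjusted p = 0.016) and was not called under the combination, at -0.24 (adjusted p = 0.29). GINS4 had another probe set called higher under the combination, and the mean of its probe sets gave -0.37 there (limma adjusted p = 0.078). MCM8, a related helicase of DNA repair, fell by 1.61 under CHR-3996.

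The subunits of the kinase that fires the helicase parted in size. DBF4, the activating subunit, fell by 1.55 under CHR-3996 (SE 0.22, limma adjusted p = 0.00016) and fell by 1.12 under the combination, while CDC7, the catalytic subunit, fell by 0.41 (SE 0.14, adjusted p = 0.032) under CHR-3996. CDC7 was the 1 gene of the 49 called under tosedostat. It read 9.75, 9.77 and 9.89 in untreated cells, 9.26, 8.99 and 9.37 under tosedostat, 9.16, 9.41 and 9.62 under CHR-3996 and 9.47, 9.48 and 9.51 under the combination. Each treated group lay below the untreated arrays without overlap. The log2 fold change was -0.60 under tosedostat (limma adjusted p = 0.041) and -0.32 under the combination (adjusted p = 0.085). Quantile normalization and equal array medians both gave -0.56 under the combination, called lower (adjusted p = 0.0035 and 0.0051). The tosedostat call was lost in 10 of the 12 fits that left out 1 array and without the filter on low values (adjusted p = 0.097), and the CHR-3996 call was lost without the filter (adjusted p = 0.063) and without any single untreated array or CHR-3996 array 1 or 2 (adjusted p of 0.055 to 0.11).

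Of the polymerase and primase genes, 9 of 10 fell under CHR-3996, against 15.7% of all probe sets called lower. Their median log2 fold change was -0.96. POLE2, the second subunit of polymerase epsilon, led them, at 10.59, 10.53 and 10.52 in untreated cells, 10.26, 10.12 and 10.39 under tosedostat, 7.43, 7.73 and 7.96 under CHR-3996 and 7.93, 8.34 and 8.75 under the combination. Each array with CHR-3996 lay below all arrays without it. POLE2 fell by 2.84 (SE 0.20, limma adjusted p = 1.1e-06) under CHR-3996, while POLE, the catalytic subunit, fell by 0.68 and POLE3, a small subunit that also binds chromatin, by 0.91. Subunits of polymerase delta likewise spread, with POLD3 falling by 1.81, POLD2 by 1.00 and POLD1, the catalytic subunit, by 0.87. POLD1 was not called under the combination, at a log2 fold change of -0.30 (adjusted p = 0.06), but was called lower there under both other scalings, at -0.69 and -0.55.

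In the polymerase alpha and primase complex, POLA1, the catalytic subunit of polymerase alpha, and POLA2, its accessory subunit, fell by 1.23 and 2.10 under CHR-3996. Among the dimmer probe sets of POLA2, 1 gave -0.61 (adjusted p = 0.079) and 1 gave 0.04 (adjusted p = 0.88), neither called. PRIM1, the small catalytic subunit of primase, fell by 0.80 (limma adjusted p = 0.0037). PRIM2, the large subunit, read 7.65, 8.05 and 7.95 in untreated cells, 8.39, 8.0 and 8.39 under CHR-3996, 7.67, 8.01 and 8.03 under tosedostat and 8.40, 8.51 and 8.65 under the combination. Only the combination arrays of PRIM2 were all above the untreated ones. The log2 fold change was 0.38 under CHR-3996 (adjusted p = 0.079) and 0.64 under the combination (adjusted p = 0.0067), and with other scalings of the arrays the combination call was lost, at 0.27 and 0.39. PRIM2 was read from the 1 probe set that the annotation gives to it alone.

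Of the clamp group, 8 of 11 genes fell under CHR-3996 and 2 rose, against 15.7% and 29.4% of all probe sets. PCNA, the sliding clamp, read 12.13, 12.05 and 12.01 in untreated cells, 11.74, 11.67 and 11.78 under tosedostat, 10.02, 10.14 and 10.47 under CHR-3996 and 10.54, 10.62 and 10.75 under the combination. From high to low the groups stood as untreated, tosedostat, combination and CHR-3996, with no overlap between any of them. PCNA fell by 1.85 (SE 0.13, limma adjusted p = 1e-06) under CHR-3996 and fell by 1.42 under the combination, and its change under tosedostat was -0.33 (adjusted p = 0.21). FEN1, the flap nuclease, fell by 1.51 and LIG1, the ligase of the lagging strand, by 1.68 under CHR-3996.

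Replication factor C, which opens the clamp, split by subunit. The 4 small subunits RFC2 to RFC5 fell by log2 fold changes between -1.59 and -0.99 under CHR-3996 and between -1.10 and -0.72 under the combination. The combination call of RFC2 was lost without untreated array 1, at -0.66 (limma adjusted p = 0.062), and without combination array 1, at -0.49 (adjusted p = 0.074). RFC1, the large subunit that is particular to this loader, read 10.69, 10.61 and 10.54 in untreated cells, 10.82, 10.70 and 10.66 under tosedostat, 11.09, 11.08 and 11.24 under CHR-3996 and 11.51, 10.96 and 11.39 under the combination. Its arrays with CHR-3996 were all above those without it. The log2 fold change of RFC1 was 0.53 under CHR-3996 (SE 0.14, limma adjusted p = 0.01) and 0.67 under the combination (adjusted p = 0.0023). With equal array medians the CHR-3996 value was 0.31 (adjusted p = 0.11), and the second brightest probe set of RFC1 gave 0.26 (adjusted p = 0.15), so this call depends on the scaling and on the probe set. RFC5 also had a probe set that was not called, at 0.45 (adjusted p = 0.074).

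The 3 subunits of replication protein A, which coats single-stranded DNA, went 3 ways. RPA2, the middle subunit, fell by 1.11 under CHR-3996 (SE 0.12, limma adjusted p = 2.2e-05) and fell by 0.76 under the combination. RPA1, the large subunit, was not called in any comparison, with log2 fold changes of -0.11, 0.04 and 0.21 under CHR-3996, tosedostat and the combination. RPA3, the small subunit, read 9.94, 10.17 and 10.02 in untreated cells, 9.85, 9.95 and 10.00 under tosedostat, 10.40, 10.84 and 11.01 under CHR-3996 and 10.80, 10.99 and 11.06 under the combination. No array overlapped between the cells with and without CHR-3996. RPA3 rose by 0.70 (SE 0.15, limma adjusted p = 0.0031) and by 0.91 (adjusted p = 0.00056), and both calls held under quantile normalization and equal array medians, the lowest value being 0.48.

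All 4 fork protection genes fell under CHR-3996, against 15.7% of all probe sets called lower, with a median log2 fold change of -1.78. TIPIN and TIMELESS, partners in a complex that travels with the fork, fell by 2.22 and 1.52, and under the combination TIPIN fell by 1.80 and TIMELESS fell by 1.15. A dimmer probe set of TIMELESS was not called, at -0.43 in both comparisons (limma adjusted p = 0.15 and 0.14). Claspin (CLSPN), the mediator of the replication checkpoint, read 8.50, 8.56 and 8.23 in untreated cells, 8.10, 8.16 and 7.71 under tosedostat, 6.14, 6.53 and 6.47 under CHR-3996 and 6.83, 7.59 and 7.03 under the combination. The combination arrays lay between the CHR-3996 arrays and the others without touching either. CLSPN fell by 2.05 (SE 0.21, limma adjusted p = 1.3e-05) under CHR-3996 and fell by 1.28 under the combination. With the mean of its probe sets, its call for the combination against tosedostat was lost, at -0.27 (limma adjusted p = 0.11). WDHD1, which ties the helicase to polymerase alpha, fell by 1.49 and 1.19.

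**Figure D3:**
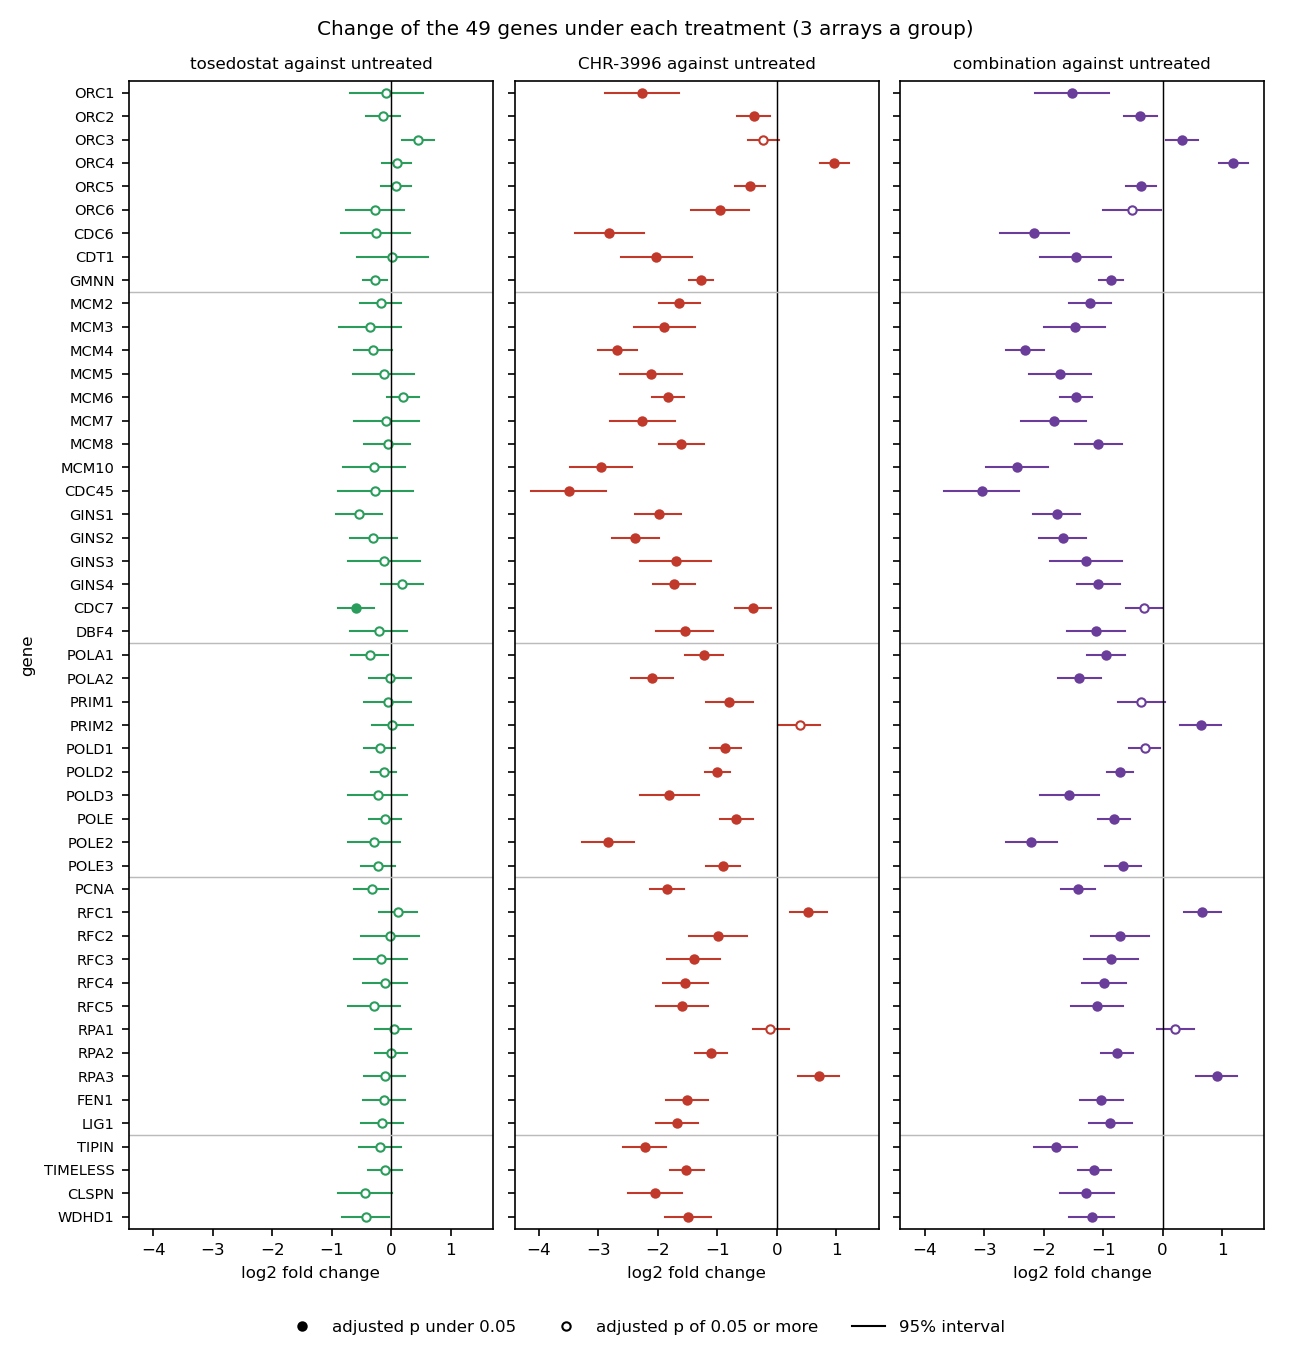
Log2 fold change against untreated cells (horizontal axis) for each of the 49 genes (vertical axis, role groups divided by lines) under tosedostat, CHR-3996 and the combination. Filled points have an adjusted p under 0.05 and lines are 95% intervals of single genes. CDC45 lies lowest at -3.50 under CHR-3996, and under tosedostat only CDC7 is filled.

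The median log2 fold change over the 49 genes was -1.55 under CHR-3996, -0.14 under tosedostat and -1.08 under the combination, against 0.11, 0.03 and 0.14 over all probe sets tested. At least 2-fold falls were called for 34 of the 49 under CHR-3996 and for 27 under the combination, against 5.58% and 4.67% of all probe sets. The comparisons share the untreated arrays, so they are set side by side only. Of the 49, 39 were lower under CHR-3996 and the combination with no call under tosedostat. ORC4, RFC1 and RPA3 were called higher in both. ORC6, POLD1 and PRIM1 were called lower under CHR-3996 and not under the combination, where quantile normalization and equal array medians called them lower too, ORC6 at -0.62 and -0.77 and PRIM1 at -0.45 and -0.60. ORC3 and PRIM2 were called higher under the combination and not under CHR-3996. CDC7 was called lower under each single compound, and RPA1 was never called. None of these genes was called in the direct test of the combination against CHR-3996, so a difference in call is not a tested difference. Against tosedostat, CHR-3996 lowered 42 of the 49 and raised 3 (16.6% and 26.3% of all probe sets), and the combination lowered 38 and raised 4 (13.7% and 28.4%). The groups did not overlap for 43 genes that were lower and 3 that were higher under CHR-3996 than in untreated cells, against 19.6% and 33.4% of all probe sets. For the combination these counts were 43 and 5, against 18.4% and 36.6%.

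With equal array medians, the median change over all probe sets went from 0.11 to -0.11 under CHR-3996 and from 0.14 to -0.10 under the combination, and quantile normalization moved it to -0.10 and -0.12. Of the 87 member probe sets that passed the filter on low values, 68 were lower and 5 higher under CHR-3996. Of all probe sets tested, 15.7% were lower and 29.4% higher there. Of the 24 genes with several such probe sets, 13 had all of them called lower, and ORC2 alone had calls in both directions.

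Tosedostat alone gave small values. Of the 49, 40 lay below 0, against 45% of all probe sets, and 6 were lower and 1 higher at an unadjusted p under 0.05 from limma, against 4.51% and 11.7% of all probe sets. In 20 genes the tosedostat arrays all lay below the untreated ones, against 8.47% of all probe sets, and in 3 they all lay above, against 16.1%. GINS1, the first subunit of GINS, had the next lowest value after CDC7, at -0.55 (limma adjusted p = 0.13). With the replicate number as a block GINS1 was called too (adjusted p = 0.046). In the other direction, 3.23% of all probe sets were called higher and none of the 49 was. ORC3 came nearest, at 0.45.

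In the direct comparison of the combination with CHR-3996 alone, limma called none of the 49 in either direction, and of all probe sets it called 0.0522% higher and 0.011% lower. The combination was higher than CHR-3996 for 48 of the 49 genes, against 60.5% of all probe sets, with a median difference of 0.42 on the log2 scale against 0.06. The differences ran from -0.14 for POLE to 0.80 for LIG1. At an unadjusted p under 0.05 from limma, 26 genes were higher and none lower, against 7.8% of all probe sets higher. The arrays of the groups did not overlap for 19 of the 49, all higher under the combination, against 10.7% of all probe sets higher and 4.09% lower.

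LIG1 read 6.82, 6.84 and 7.27 under CHR-3996 and 7.62, 7.71 and 8.01 under the combination, beside 8.89, 8.55 and 8.54 in untreated cells and 8.61, 8.42 and 8.49 under tosedostat. Its combination arrays stood between the CHR-3996 arrays and the rest. The difference of 0.80 had a 95% interval of 0.45 to 1.16 for this gene alone and an adjusted p of 0.15 from limma, the smallest of the 49. For CDC45 the difference of 0.46 had an interval of -0.18 to 1.09, so neither equality nor a 2-fold difference lay outside it. The 6 MCM2-7 genes differed by 0.37 to 0.43, and ORC2, ORC5 and CDC7 by 0.02 to 0.09.

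**Figure D4:**
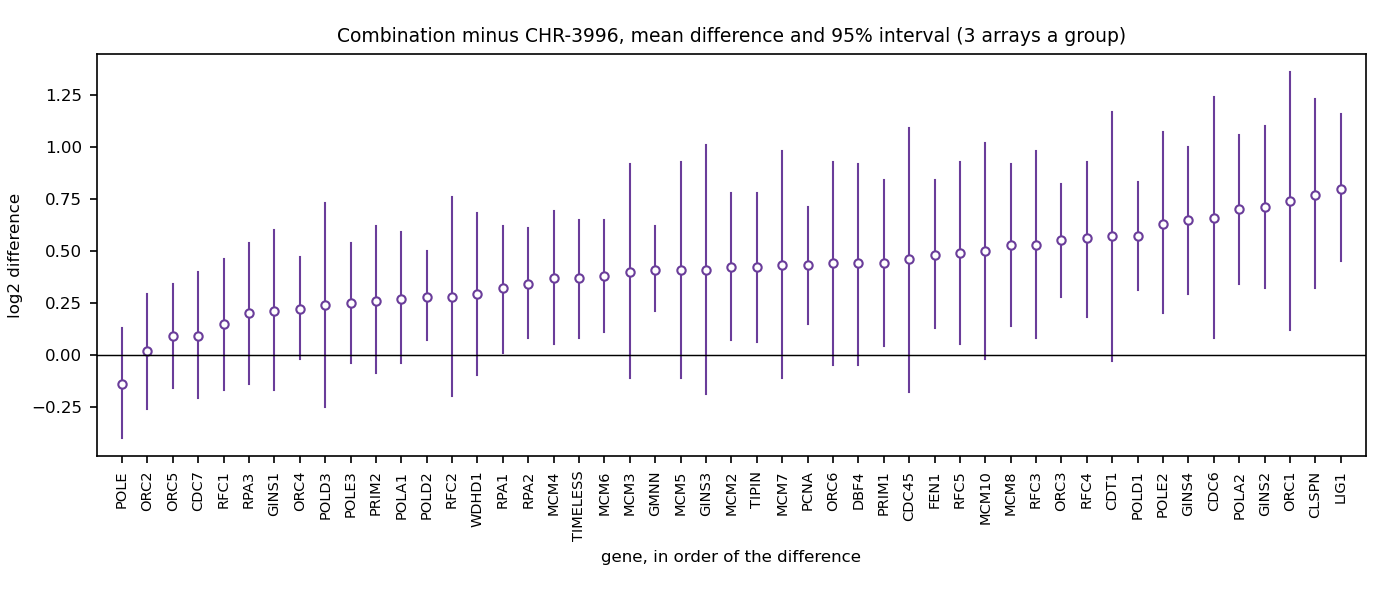
Log2 difference between the combination and CHR-3996 alone (vertical axis) for the 49 genes in order of that difference (horizontal axis), with 95% intervals of single genes. POLE alone lies below 0, at -0.14, LIG1 is highest at 0.80, and no gene passed an adjusted p of 0.05.

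The first CHR-3996 array was the lowest of its group for 45 of the 49 genes, against 49.7% of all probe sets tested, and the third combination array was the highest of its group for 42, against 29.1%. The same numbers stood out in the other group. The first combination array was the lowest of its group for 38, against 34.4%, and the third CHR-3996 array the highest for 30, against 26.3%. The median difference from untreated cells over the 49 was -1.84, -1.39 and -1.36 on the 3 CHR-3996 arrays and -1.26, -1.04 and -0.82 on the 3 combination arrays. Without the first CHR-3996 array the median difference between combination and CHR-3996 was 0.25, with 45 of 49 above 0 and 14 at an unadjusted p under 0.05 from limma. Without the third combination array it was 0.28, with 47 above 0 and 14 under that p. Without the first combination array it was 0.54, with 36 under that p. Each of these fits kept the same-numbered array of the other group, and nothing states what a number marks. With the replicate number as a block, 31 genes were higher under that p, against 10.9% of all probe sets, and none was called. The falls against untreated cells depended little on these arrays, with a median of -1.41 for CHR-3996 without its first array and -0.95 for the combination without its first.

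The interaction compared the effect of CHR-3996 in the presence of tosedostat with its effect alone. It was above 0 for 48 of the 49 genes, with a median of 0.60 on the log2 scale against 0.01 over all probe sets, and none was called at an adjusted p under 0.05 from limma. Over all probe sets 0.184% were called lower and 0.022% higher. At an unadjusted p under 0.05, 27 of the 49 were higher and none lower, against 4.65% of all probe sets higher, and 15 were without the third combination array. CLSPN had the largest value, 1.21 (SE 0.29, limma adjusted p = 0.17), and geminin the smallest adjusted p, at 0.68 (SE 0.13, adjusted p = 0.075). This contrast shares its arrays with the one above.

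Other genes of the pathway were read from lists beside the set. Of 18 initiation and fork factors, 13 fell and 1 rose under CHR-3996, against 15.7% and 29.4% of all probe sets. Their median log2 fold change was -0.97. DNA2, a nuclease and helicase of flap processing, read 8.48, 8.43 and 8.43 in untreated cells and 5.59, 5.20 and 5.77 under CHR-3996, and fell by 2.93 (SE 0.21, limma adjusted p = 1.4e-06). DSCC1, part of an alternative clamp loader, fell by 2.03 and MTBP, which helps to fire origins, by 1.89. In the study's own list of changes under CHR-3996, the probe set read here as MTBP is named MDM2. POLD4, the smallest subunit of polymerase delta, went against POLD1 to POLD3. It read 6.51, 7.41 and 6.92 in untreated cells, 8.91, 9.47 and 9.13 under CHR-3996, 7.37, 8.19 and 7.47 under tosedostat and 9.18, 9.58 and 9.13 under the combination. The CHR-3996 and combination arrays were all above the others. Its log2 fold change was 2.22 under CHR-3996 (SE 0.27, limma adjusted p = 5.4e-05) and 2.35 under the combination.

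Chromatin assembly at the fork gave 7 lower and 1 higher of 8 genes under CHR-3996, against 15.7% and 29.4% of all probe sets. CHAF1A and CHAF1B, subunits of chromatin assembly factor 1, fell by 1.67 and 1.54, and NASP, a histone chaperone, by 1.57. The paralogous chaperones ASF1B and ASF1A had log2 fold changes of -1.08 and 0.48, both called. Of 10 genes of licensing control, 9 fell, against 15.7% of all probe sets. CDC25A, a phosphatase that activates cyclin-dependent kinases, fell by 5.17. FBXO5, which restrains the anaphase-promoting complex, fell by 2.37, and CCNA2, the S phase cyclin, by 2.32. Under the combination the counts were 11 lower and 1 higher of 18, 7 and 1 of 8, and 7 and 0 of 10. Of all probe sets 14.1% were called lower and 32% higher there.

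Of 13 E2F and RB factors, 6 were lower and 4 higher under CHR-3996, against 15.7% and 29.4% of all probe sets. E2F1, E2F2 and E2F8 fell by 2.75, 3.30 and 2.54. TFDP2, RB1 and RBL2 rose by 1.18, 1.05 and 0.99, the last pair being pocket proteins that bind E2F factors. RBL1, another pocket protein of the list, and TFDP1 went the other way, with all their CHR-3996 arrays below the untreated ones. Neither the pocket proteins nor the TFDP factors therefore moved in 1 direction. Under the combination 5 were lower and 4 higher, against 14.1% and 32%. Tosedostat alone lowered 2 of the 13, the lowest at -0.74, and raised 0, against 0.451% and 3.23% of all probe sets. It called no gene of the other lists. The interaction called 1 of the 18 initiation and fork factors higher (limma adjusted p = 0.042), against 0.022% of all probe sets, and no gene of the other lists. None of these lists was tested as a set.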

How the data were processed

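Total RNA of 12 samples of H929 cells was amplified, labelled with biotin and hybridised by the authors to Affymetrix U133 Plus 2.0 arrays, which they normalised in dChip. The table they deposited holds a log2 level for each array and each of 54675 probe sets, the log2 scale being inferred from the range of the values. Which dChip version, normalisation and summary were used is not given in the sources used here.

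After removal of 62 control probe sets, 36395 of 54613 were fitted, namely those that exceeded the array's 40th percentile in 3 or more of the arrays, with limma 3.58.1 in R 4.3.3, with 1 term per group, 8 residual degrees of freedom and no further normalisation. The 7 contrasts were adjusted by Benjamini and Hochberg over all probe sets tested, at 0.05, and intervals are 95% t intervals. Gene symbols are those of the array annotation, brought up to date with RefSeq identifiers. Of the tested probe sets 29161 had 1 symbol, 1365 several and 5869 none, and a gene was read only from probe sets assigned to it alone. The fit was also run on simulated data, with independent noise and a small share of probe sets changed in the CHR-3996 group only. Far more probe sets were called in the real data, so that run does not bear on the calls given here. All 49 members were named by rule. Of each partner list, the rule gave up to 3 called genes with the largest change in each direction, and ASF1B, named beside ASF1A, was chosen after its values were seen. The members and lists were chosen with earlier results of these data known.

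Alternatives were quantile normalisation, equal array medians, no filter, the 60th percentile, a replicate block, a variance trend with robust estimation, only the arrays compared, other probe sets of a gene, a rule on size and leaving out each array. Same-numbered arrays deviated together (r over 0.1 in all 3 pairs) in 4 of 6 pairs of groups, the exceptions being the pairs of the untreated group with each group that received CHR-3996, and nothing states what a number marks. Promoters came from RefSeq, and figures were drawn with matplotlib 3.10.9.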

Additional observations from a re-analysis of the deposited data

How the results depend on the processing

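Leaving out each array in turn gave 41 to 43 lower and 3 to 4 higher genes under CHR-3996, 0 to 1 lower and 0 to 1 higher under tosedostat, and 36 to 40 lower and 4 to 5 higher under the combination. For the combination against tosedostat it gave 36 to 38 lower and 4 higher in each fit, and for CHR-3996 against tosedostat 41 to 42 lower and 2 to 3 higher. Of the 43 falls under CHR-3996, 31 kept their call under every alternative and 39 under all but the rule on size (at least 2-fold and a linear difference over 100). For the combination 22 and 32 of 39 did.

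The rule on size left 0 higher under CHR-3996, 0 lower under tosedostat, 1 higher under the combination, 21 lower and 2 higher for the combination against tosedostat, and 0 higher for CHR-3996 against tosedostat. Under the combination 3 genes were higher with quantile normalisation and 3 with equal medians, and with equal medians 2 were higher for the combination against tosedostat. For tosedostat no gene was lower without the filter (0) or with only the arrays compared (0), and 1 was higher, ORC3, with the 60th percentile filter and with a variance trend. The trend fit called 1 gene higher for the combination against CHR-3996, LIG1, and 3 in the interaction, GMNN, GINS2 and PCNA. The 60th percentile filter called 1 in the interaction, GMNN.

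With the replicate number as a block, tosedostat lowered 2 genes, CDC7 and GINS1, the interaction called 1 gene higher, GINS2 at 1.01 (adjusted p = 0.043), and ORC3 lost its call under the combination (adjusted p = 0.055). The block changed no other call. POLA2 read from its brightest probe set without the suffix _s_at or _x_at was 0.04 under CHR-3996 and 0.04 under the combination, and 0.11 for either against tosedostat, none of them called, where the brighter probe set fell. The cause of these differences was not tested. With 3 arrays a group, small differences are the least certain.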
